A study of Mus musculus with 15 samples.

Results

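Expression of 7 genes of glutamine metabolism and ammonia production was described in single microdissected mouse proximal tubules and in whole mouse kidney. The genes were Gls2, Glud1, Glul, Got1, Got2, Gpt and Asns, chosen by symbol from the 47069 genes of the deposited expression table, and all 7 had a row in it. The table held 12 libraries of single tubules labelled PTS2 and 3 libraries of whole kidney, made from polyadenylated RNA of male C57BL/6 mice aged 2 months, with no treatment or altered allele named in the labels. The tubule libraries came as sets m1, m2 and m3, each with replicates 1 to 4. The labels do not say what the letter m or the replicate number marks, and nothing says which libraries came from separate animals, so p-values measure the spread between these libraries. Values are TPM, transcript abundances scaled for gene length and to a total of 1000000 per library. They can be compared between genes, but they hold no record of how deeply each library was sequenced.

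The kidney proximal tubule takes up glutamine and breaks it down to release ammonium, which carries acid into the urine, while the remaining carbon feeds glucose synthesis. Glutaminase removes the amide nitrogen of glutamine to give glutamate, and glutamate dehydrogenase, encoded by Glud1, releases the amino nitrogen inside mitochondria. Glutamine synthetase, encoded by Glul, runs the other way and joins ammonium to glutamate. The aminotransferases move the amino group of glutamate to and from other carbon skeletons: Got1 and Got2 encode the cytosolic and mitochondrial aspartate aminotransferases, and Gpt the cytosolic alanine aminotransferase. Asparagine synthetase, encoded by Asns, spends the amide nitrogen of glutamine on asparagine. Gls2 encodes the glutaminase best known from liver.

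The label PTS2 was checked against segment markers before the genes were compared. The early-segment (S1) markers Slc5a2 and Slc5a12 summed to between 0.01 and 1.49 TPM in the tubules and to between 698.6 and 780 TPM in whole kidney. The middle-segment (S2) markers Slc22a6 and Slc22a8 summed to between 368.3 and 1149 TPM in the tubules, a range that enclosed the kidney values of 718.7 to 781.4 TPM. Slc22a6 carried most of that sum, and Slc22a8 alone was lower in every tubule (24.72 to 160.99 TPM) than in every kidney library (261.29 to 283.67 TPM). The late-segment (S3) markers Slc7a13 and Slc5a10 summed to between 1606 and 2534 TPM in the tubules, above all kidney libraries (804.2 to 1045 TPM). Markers of S2 and S3 were therefore both present, and those of S1 were nearly absent. Among 25 markers of non-proximal cell types, 23 were lower in every tubule library than in every kidney library, and the distal convoluted tubule markers Slc12a3 and Pvalb summed to at most 0.54 TPM. The exceptions were the macrophage marker Csf1r and the lymphocyte marker Cd3e. Csf1r had 14.99 to 69.74 TPM in the tubules and 18.27 to 23.51 TPM in whole kidney. Cd3e had at most 0.24 TPM in the tubules and 0.02 to 0.6 TPM in whole kidney. The tubule library m3 replicate 3 stood apart: its thick ascending limb markers summed to 1441 TPM, against at most 55.83 TPM in the other tubules and 2425 to 2723 TPM in whole kidney.

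The 7 genes spanned a wide range of levels in PTS2. By mean TPM, Glul ranked 551 of the 47069 genes, Got2 1429, Glud1 1509, Gpt 2606, Got1 2992, Asns 7734 and Gls2 14386. Glul was above Got2 in 12 of 12 tubules, Glud1 above Gpt in 12 of 12, Gpt above Got1 in 10 of 12, Got1 above Asns in 12 of 12 and Asns above Gls2 in 12 of 12. Got2 and Glud1 could not be ordered, with Got2 higher in 8 of 12 tubules. In whole kidney the order differed for the transaminases: Got1 ranked 1286 there and was above Gpt, which ranked 4693, in 3 of 3 libraries.

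**Figure D1:**
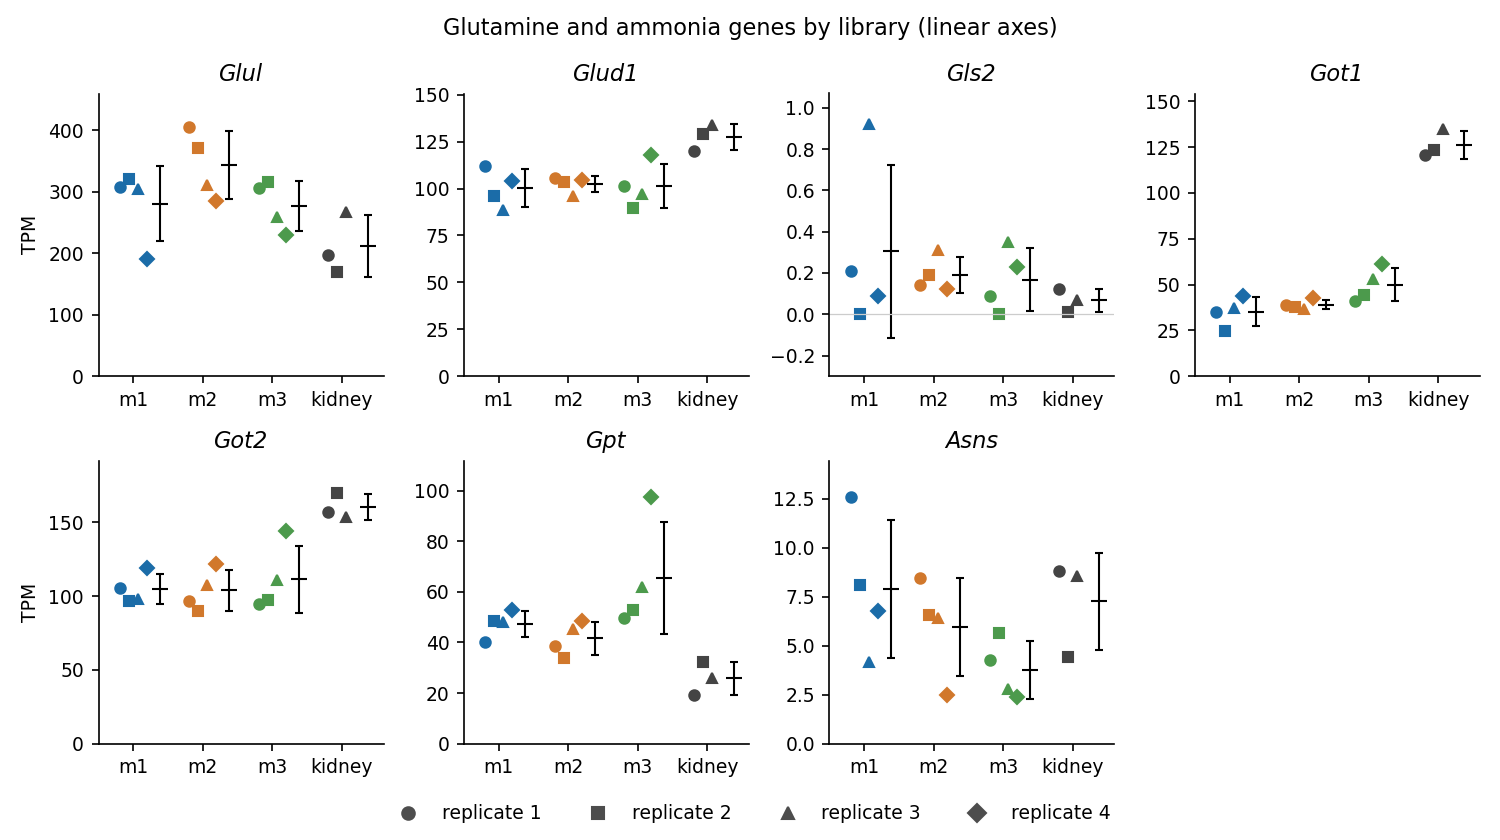
TPM of the 7 genes in every library on linear axes, with colours for the 3 tubule sets and whole kidney, marker shapes for the replicate number, and black bars for the mean ± SD of each group. All 12 tubules lie below the 3 kidney libraries for Got1, Got2 and Glud1 and above them for Gpt, while Glul, Asns and Gls2 overlap.

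Against whole kidney, Glul and Gpt were higher in PTS2, Got1, Got2 and Glud1 were lower, and Asns did not pass the test. Differences were tested with limma on log2(TPM + 1), with Benjamini-Hochberg adjustment over the 12039 genes whose mean reached 1 TPM and a threshold of 0.05 on the adjusted p. Of the 7 genes, 6 entered this test and 5 of these passed, 2 higher and 3 lower, beside 46.9% of all genes tested (8.69% higher and 38.2% lower). On the log2 scale the median difference was -0.34 for the 6 and -0.27 for all genes tested. The shift of all genes depended on the scaling: it was -0.03 after median-of-ratios rescaling and 0.16 after quantile normalization, and the share of all calls that were higher moved from 18.5% to 46.9% and 64.3%. Relative to that shift Got1 lay far below and Gpt and Glul lay above, while Glud1 lay near the median of all genes. Tubules and whole kidney did not overlap for 4 of the 6 genes tested, beside 37.8% of all genes tested: 3 lay below (32.0% of all genes) and 1 above (5.76%). In such bulk libraries, fewer cells of a type and less RNA per cell cannot be told apart.

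The gene for glutamine synthesis was the most abundant of the 7. Glul (ENSMUSG00000026473, protein coding, GRCm38 chr1:153899944-153909723, plus strand) measured 307.04, 319.76, 303.96 and 189.75 TPM in m1 replicates 1 to 4. It measured 405.33, 370.72, 309.88 and 284.53 TPM in m2, and 305.19, 315.29, 258.23 and 228.65 TPM in m3. Whole kidney libraries had 196.65, 169.79 and 267.53 TPM. Only m1 replicate 4, m3 replicate 3 and m3 replicate 4 lay within the kidney range, so the groups overlapped. The means were 300 ± 57.3 TPM in PTS2 (SD, n = 12) and 211 ± 50.5 TPM in whole kidney (SD, n = 3), a log2 difference of 0.50 ± 0.19 (SE) with an adjusted p of 0.0429 by limma. This call ended without kidney replicate 1 (adjusted p = 0.117 by limma), without kidney replicate 2 (0.202), and without m1 replicate 1 (0.0925), m1 replicate 3 (0.0526), m2 replicate 3 (0.0574) or m3 replicate 2 (0.0614). It also ended with a minimum mean of 10 TPM (0.0545). The microRNA gene Mir8114 lies within Glul on the same strand and was listed at 131.6 TPM in the tubules and 86.66 TPM in whole kidney, so the split of reads between the 2 genes is uncertain.

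Gls2 was close to 0 in all libraries. Gls2 (ENSMUSG00000044005, GRCm38 chr10:128194457-128210004, plus strand) was listed at 0 in 2 tubules, had a median of 0.165 TPM and reached at most 0.92 TPM, in m1 replicate 3. The kidney libraries had 0.12, 0.01 and 0.07 TPM. Gls2 missed the minimum mean of 1 TPM and was not tested. Its locus overlaps Spryd4 on the other strand, which averaged 24.16 TPM in PTS2, and whether reads were counted by strand is not given in the sources used here.

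Relative to its mean, Glud1 varied least among the tubules. Glud1 (ENSMUSG00000021794, GRCm38 chr14:34310727-34345265, plus strand) measured 112.18, 95.91, 88.7 and 103.96 TPM in the replicates of m1, 105.5, 103.51, 96.24 and 104.56 TPM in those of m2, and 101.39, 89.76, 97.25 and 117.71 TPM in those of m3. The kidney libraries had 120.06, 129.06 and 133.89 TPM, all above the highest tubule. The means were 101 ± 8.48 TPM in PTS2 (SD, n = 12) and 128 ± 7.02 TPM in whole kidney (SD, n = 3), with a log2 difference of -0.33 ± 0.09 (SE) and an adjusted p of 0.00543 by limma. After median-of-ratios rescaling the difference was -0.07 with an adjusted p of 0.465 by limma, so whether Glud1 was lower depended on the scaling.

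The pair of aspartate aminotransferases was lower in the tubules, the cytosolic enzyme by more than the mitochondrial one. Got1 (ENSMUSG00000025190, GRCm38 chr19:43499752-43524605, minus strand) measured 34.91, 24.49, 37.31 and 43.62 TPM in the replicates of m1, 38.96, 37.82, 36.79 and 42.56 TPM in those of m2, and 41.27, 44.18, 53.13 and 60.94 TPM in those of m3. Whole kidney had 120.57, 123.31 and 134.66 TPM. No tubule came near the kidney libraries, and the highest one was m3 replicate 4. The means were 41.3 ± 9.14 TPM in PTS2 (SD, n = 12) and 126 ± 7.47 TPM in whole kidney (SD, n = 3), a 3.05-fold higher kidney mean. The log2 difference was -1.62 ± 0.19 (SE) with an adjusted p of 1.96e-06 by limma.

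Got2 (ENSMUSG00000031672, GRCm38 chr8:95864134-95888547, minus strand) measured 105.41, 96.66, 97.95 and 119.08 TPM in the replicates of m1, 96.6, 89.75, 107.78 and 121.74 TPM in those of m2, and 94.39, 97.05, 110.89 and 143.89 TPM in those of m3. The kidney libraries had 156.97, 170.12 and 153.93 TPM. All tubules were lower than whole kidney, and replicate 4 of m3 came closest. The means were 107 ± 15.4 TPM (SD, n = 12) and 160 ± 8.61 TPM (SD, n = 3), a log2 difference of -0.59 ± 0.13 (SE) with an adjusted p of 0.00113 by limma. A processed copy, Got2-ps1, has its own row at 1.618 TPM in the tubules and 2.813 TPM in whole kidney, so a small part of the Got2 value is uncertain.

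Within each library, the log2 ratio of Got1 to Got2 (each as TPM + 1, so that scaling has little bearing on it) averaged -1.37 ± 0.24 in PTS2 (SD, n = 12) and -0.34 ± 0.14 in whole kidney (SD, n = 3). The ranges were -1.94 to -1.05 and -0.46 to -0.19, and they did not overlap. An exact two-sided permutation test over 455 arrangements gave p = 0.0044, the smallest value it can give, and an adjusted p of 0.00659 over the 3 ratios compared. The log2 ratio of Glul to Glud1, the genes for making glutamine and for releasing ammonium from glutamate, averaged 1.53 ± 0.34 in PTS2 (SD, n = 12) and 0.70 ± 0.30 in whole kidney (SD, n = 3). The exact permutation p was 0.0132, with the same adjusted p. It rose to 0.0659 without kidney replicate 1 or without kidney replicate 2 (exact permutation tests). With 1 mean per tubule set, each of the 3 ratios gave an exact permutation p of 0.1, the smallest that 3 against 3 allows.

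Among the aminotransferases of the 7 genes, the cytosolic alanine enzyme was higher in the tubules. Gpt (ENSMUSG00000022546, GRCm38 chr15:76695716-76699686, plus strand) measured 40.05, 48.41, 48.05 and 52.67 TPM in the replicates of m1, 38.74, 34.03, 45.15 and 48.42 TPM in those of m2, and 49.66, 52.65, 61.89 and 97.66 TPM in those of m3. Whole kidney had 19.31, 32.19 and 26.01 TPM. Every tubule was above every kidney library, although m2 replicate 2 exceeded the highest of them only narrowly, and m3 replicate 4 was far above the other tubules. The means were 51.4 ± 16.3 TPM in PTS2 (SD, n = 12) and 25.8 ± 6.44 TPM in whole kidney (SD, n = 3), a 1.99-fold higher tubule mean. The log2 difference was 0.95 ± 0.24 (SE), with an adjusted p of 0.00376 by limma.

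Its mitochondrial counterpart Gpt2 averaged 24.0 ± 5.76 TPM in PTS2 (SD, n = 12) and 31.8 ± 1.99 TPM in whole kidney (SD, n = 3), and the log2 difference of -0.43 ± 0.19 (SE) did not pass the test (adjusted p = 0.0765 by limma). It passed in 7 of 27 alternatives, all lower in PTS2, among them without m1 replicate 4 (adjusted p = 0.0199 by limma), without m3 replicate 4 (0.0262), and without the 3 tubules numbered 4, where it was -0.56 (0.000731). The log2 ratio of Gpt to Gpt2 averaged 1.05 ± 0.34 in the tubules (SD, n = 12) and -0.32 ± 0.35 in whole kidney (SD, n = 3). The exact two-sided permutation p was 0.0044 and the adjusted p 0.00659. The cytosolic gene thus had the higher TPM of the pair in the tubules and the lower one in whole kidney.

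Asns was low and variable. Asns (ENSMUSG00000029752, GRCm38 chr6:7675169-7693254, minus strand) measured 12.61, 8.08, 4.17 and 6.79 TPM in the replicates of m1, 8.44, 6.58, 6.42 and 2.48 TPM in those of m2, and 4.29, 5.64, 2.77 and 2.37 TPM in those of m3. The kidney libraries had 8.84, 4.43 and 8.57 TPM, which lie inside the tubule range. The means were 5.89 ± 2.98 TPM (SD, n = 12) and 7.28 ± 2.47 TPM (SD, n = 3). The log2 difference was -0.34 ± 0.39 (SE) with an adjusted p of 0.498 by limma, and its sign turned to 0.35 after quantile normalization.

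**Figure D2:**
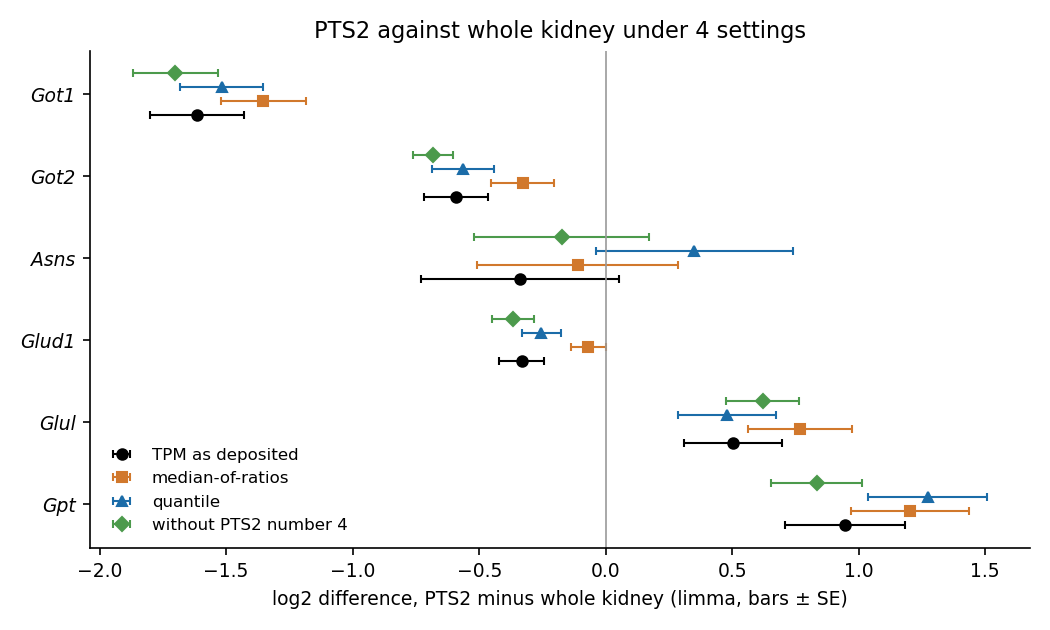
Log2 difference between PTS2 and whole kidney for 6 of the 7 genes (limma, points with bars of 1 SE, 0 meaning no difference), for TPM as deposited, 2 other scalings and without the tubules numbered 4. Got1 and Got2 stay below 0, Gpt and Glul stay above 0, Glud1 moves close to 0 after median-of-ratios rescaling (-0.07), and Asns lies on both sides of 0.

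Asns is a known target of the amino acid response, in which Atf4 binds a C/EBP-ATF response element in target promoters. Promoter sequences of 250 bases before the RefSeq start site were taken from RefSeq (GRCm38.p6) and matched 5 of the 7 genes. RefSeq and GENCODE place some starts differently: by the GENCODE positions given above, 45 bases of the Asns window and 146 of the Got2 window lie inside the gene, and 0 of the Got1 window. The element was searched as TGATGNAAN on both strands, where N is any base, and this pattern was found in 3.44% of 32851 promoters of the same length. Among the 5 promoters it occurred in Asns and Got1. Both are shown, with Got2, the mitochondrial partner of Got1, for comparison. Capitals mark the matched bases; each sequence is written 5′ to 3′ on the strand of its gene, at chr6:7693210-7693459, chr19:43524606-43524855 and chr8:95888402-95888651, all on the minus strand.
Asns: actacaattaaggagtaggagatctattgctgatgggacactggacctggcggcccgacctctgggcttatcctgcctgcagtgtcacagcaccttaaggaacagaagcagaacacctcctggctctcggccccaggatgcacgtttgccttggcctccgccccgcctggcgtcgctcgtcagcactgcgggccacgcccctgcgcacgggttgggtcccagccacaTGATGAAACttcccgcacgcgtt
Got1: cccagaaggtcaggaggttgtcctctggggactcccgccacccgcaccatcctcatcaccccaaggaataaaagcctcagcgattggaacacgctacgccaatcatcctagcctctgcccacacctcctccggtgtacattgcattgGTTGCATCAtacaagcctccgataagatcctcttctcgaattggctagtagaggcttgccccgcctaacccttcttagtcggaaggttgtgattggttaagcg
Got2: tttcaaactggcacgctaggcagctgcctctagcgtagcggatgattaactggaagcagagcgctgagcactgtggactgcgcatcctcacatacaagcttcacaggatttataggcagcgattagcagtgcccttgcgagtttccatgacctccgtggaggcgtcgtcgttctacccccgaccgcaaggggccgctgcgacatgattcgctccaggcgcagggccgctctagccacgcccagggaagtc
The Asns match, TGATGAAAC, lies 15 to 23 bases before the RefSeq start on the strand of the gene, which is inside the gene by its GENCODE bounds. The Got1 match, TGATGCAAC, lies 95 to 103 bases before the RefSeq start on the other strand, so the sequence above shows its complement. No match was found in the Got2 window, which says only that these letters are not there. A match describes the sequence and does not show that the site is bound. Atf4 itself differed among the tubule sets (adjusted p = 0.0121 by limma's F test), with a mean of 37.8 ± 3.90 TPM in m1, 51.9 ± 4.47 in m2 and 36.6 ± 1.01 in m3 (SD, n = 4 for each set). That call ended without m2 replicate 2 (adjusted p = 0.0574 by limma), without m2 replicate 3 (0.0552), without both m3 replicate 3 and m1 replicate 4 (0.0556) and without the tubules numbered 4 (0.107). Neither Asns (adjusted p = 0.357 by limma's F test) nor Got1 (0.209) passed the same test. Whether Atf4 RNA tracks the action of Atf4 on either gene was not tested.

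None of the 6 genes passed the test of any difference among the sets m1, m2 and m3. The F test of limma over 11300 genes called 3.02% of all genes and 0 of the 6. Of the 6, 2 had an unadjusted p under 0.05 in limma, Gpt (0.0183) and Got1 (0.0214), beside 1857 of all 11300 genes. The set means of Gpt were 47.3 ± 5.27, 41.6 ± 6.44 and 65.5 ± 22.1 TPM (SD, n = 4 each), and those of Got1 were 35.1 ± 7.96, 39.0 ± 2.51 and 49.9 ± 8.94 TPM (SD, n = 4 each). The pairwise limma contrasts of m2 with m1, m3 with m1 and m3 with m2 called 0.54%, 3.17% and 1.97% of all genes and 0 of the 6. Glud1 had the closest set means, 100 ± 10.1, 102 ± 4.22 and 102 ± 11.8 TPM (SD, n = 4 each).

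The tubules that carry the same replicate number in different sets were also compared, in a model with set and number that takes the numbers as names. The F test of limma over the numbers called 2.71% of the 11300 genes and 1 of the 6, Glul (adjusted p = 0.0304). Its means were 339 ± 57.3 TPM for number 1, 335 ± 30.8 TPM for number 2, 291 ± 28.3 TPM for number 3 and 234 ± 47.6 TPM for number 4 (SD, n = 3 each). Number 4 was the lowest tubule of its set for Glul in 3 of 3 sets, and it was the highest of its set in 3 of 3 for Got1, Got2 and Gpt. How often number 4 was at an extreme in 3 of 3 sets over all genes was not tested. The call for Glul ended in 11 of 20 alternatives. Among these were 8 of 12 fits that each left out 1 tubule, where the adjusted p ran from 0.0195 to 0.101 by limma. It also ended without a filter (adjusted p = 0.192 by limma), with set left out of the model (0.309) and without both m3 replicate 3 and m1 replicate 4 (0.183). The single libraries whose omission ended the call for Glul were m1 replicates 1 and 4, m2 replicates 1 and 4 and all 4 replicates of m3.

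Number 4 was then set against number 1, a contrast chosen after these values were seen, so its p-values are no independent support. It called 4.76% of all genes (1.69% higher and 3.07% lower) and 3 of the 6. Those 538 calls over all genes fell to between 249 and 347 without m1 replicate 1 or 4, m2 replicate 1 or 4, or m3 replicate 1. Glul was lower in number 4 by a log2 difference of -0.54 ± 0.10 (SE, adjusted p = 0.00962 by limma), a call that ended in 4 of 20 alternatives: without a filter (0.067), with set left out of the model (0.146), without m2 replicate 1 (0.0691) and without both m3 replicate 3 and m1 replicate 4 (0.0695). Got2 was higher by 0.37 ± 0.09 (SE, adjusted p = 0.0364 by limma), with 98.8 ± 5.83 TPM for number 1 and 128 ± 13.6 TPM for number 4 (SD, n = 3 each). Gpt was higher by 0.55 ± 0.14 (SE, adjusted p = 0.0476 by limma), a call that ended in 14 of 20 alternatives, and that for Got2 ended in 10 of 20. Both ended without m3 replicate 3 (adjusted p = 0.0628 for Got2 and 0.0695 for Gpt by limma) and without m1 replicate 4 (0.0632 and 0.0545).

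Some marker sums moved with the number too. The S2 markers Slc22a6 and Slc22a8 summed to between 892.3 and 1149 TPM in the tubules numbered 4 and to between 368.3 and 762.1 TPM in all others, so these groups did not overlap. The S3 markers Slc7a13 and Slc5a10 summed to between 1606 and 2127 TPM in number 4 and between 1857 and 2534 TPM in the others, which overlapped. Principal cell markers (Aqp2, Aqp3 and Scnn1g) summed to between 21.6 and 50.02 TPM in number 4 and between 7.84 and 20.34 TPM in the others, without overlap. Aqp3 carried most of that sum, with 21.39 to 43.12 TPM in number 4 and 7.31 to 19.31 TPM in the others. Aqp2 was 6.9, 0.12 and 0.59 TPM in number 4 of m1, m2 and m3, and at most 1.53 TPM in the others. Scnn1g reached at most 0.09 TPM in any tubule. In whole kidney Aqp2 (370.69 to 608.04 TPM) was above Aqp3 (120.39 to 152.08 TPM). The part of the tubule segment or of principal cell RNA in the differences of Glul, Got2 and Gpt was not tested. Without the 3 tubules numbered 4, the log2 differences from whole kidney kept their direction for all 6 genes, and that of Glul was 0.62 with an adjusted p of 0.00327 by limma.

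**Figure D3:**
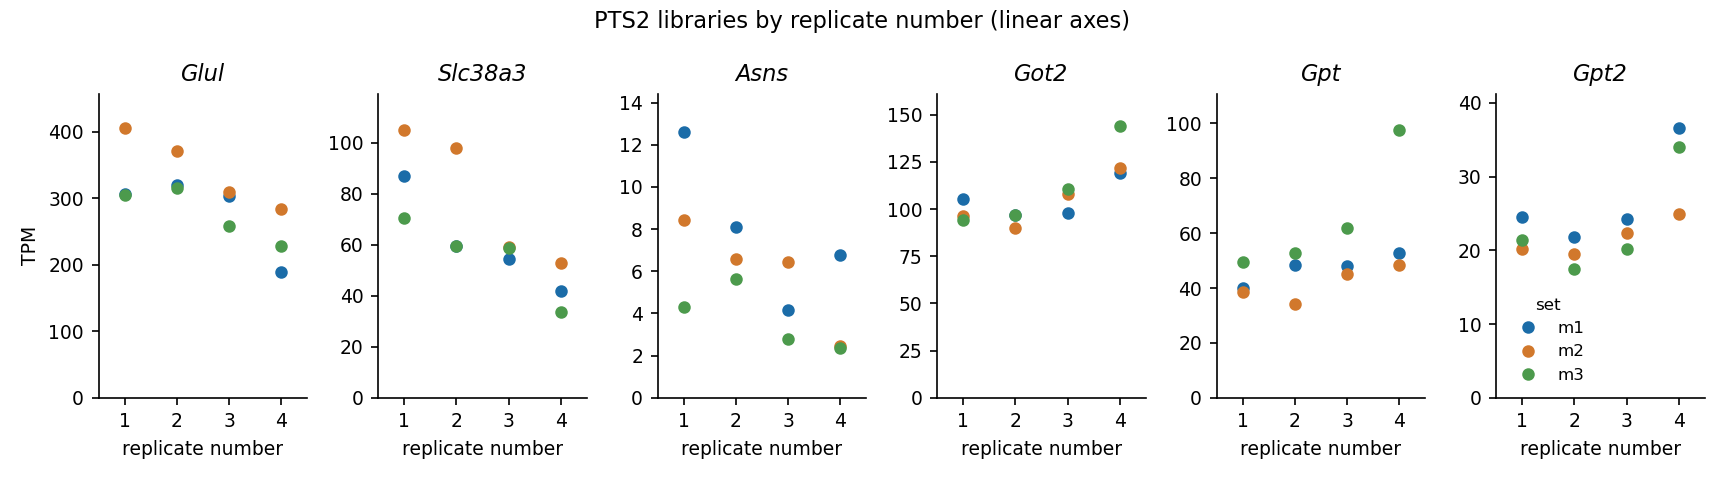
TPM of Glul, Slc38a3, Asns, Got2, Gpt and Gpt2 in the 12 tubules on linear axes, by replicate number, with 1 colour for each set. In all 3 sets the tubule numbered 4 is the lowest for Glul and Slc38a3 and the highest for Got2, Gpt and Gpt2.

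Of 60 further genes of the pathway in 7 lists, 48 were tested against whole kidney and 34 passed, 8 higher and 26 lower in PTS2, beside the 46.9% of all genes. Their median log2 difference was -0.43. After median-of-ratios rescaling the calls were 14 higher and 18 lower, and after quantile normalization 10 higher and 20 lower. Over all genes tested, with TPM as deposited, 8.69% were higher and 38.2% lower. After median-of-ratios rescaling 2431 of the 12039 genes were higher and 2749 lower, and after quantile normalization 3863 higher and 2148 lower. The counts of each list below are to be read beside those of all genes under the same scaling.

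Transporters that bring glutamine and glutamate into cells divided strongly. All 8 tested passed, 2 higher and 6 lower, with a median log2 difference of -2.33. Slc38a3, the basolateral glutamine transporter of the proximal tubule, averaged 64.9 ± 21.5 TPM in PTS2 (SD, n = 12) and 21.2 ± 5.63 TPM in whole kidney (SD, n = 3), a log2 difference of 1.53 ± 0.30 (SE, adjusted p = 0.000486 by limma). Slc1a1, a glutamate transporter, was higher by 0.73 ± 0.18 on the log2 scale (SE). The apical neutral amino acid transporter Slc6a19 averaged 10.6 ± 1.84 TPM in PTS2 (SD, n = 12) and 251 ± 41.5 TPM in whole kidney (SD, n = 3), and the basolateral Slc7a8 averaged 6.37 ± 3.06 and 98.9 ± 14.4 TPM. Their log2 differences were -4.44 ± 0.16 and -3.87 ± 0.37 (SE). Slc38a3 also differed among the replicate numbers (adjusted p = 0.0116 by limma's F test), with 87.4 ± 17.2 TPM for number 1 and 42.8 ± 9.52 TPM for number 4 (SD, n = 3 each), and number 4 was the lowest of its set in 3 of 3.

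Genes that release ammonia and use the remaining carbon were divided. Of 5 tested, 3 passed (60.0%), 1 higher and 2 lower, with a median log2 difference of 0.00. The higher gene was Ggt1, a brush border enzyme that acts on glutathione, with 2756 ± 225 TPM in PTS2 (SD, n = 12) against 1555 ± 97.9 TPM (SD, n = 3) and a log2 difference of 0.82 ± 0.09 (SE, adjusted p = 7.23e-07 by limma). Ogdh and Mdh2, enzymes of the citric acid cycle, were lower by -0.43 ± 0.14 and -0.14 ± 0.05 on the log2 scale (SE), and after median-of-ratios rescaling Ogdh no longer passed and Mdh2 turned to 0.13. Pck1, which commits carbon to glucose synthesis, averaged 1859 ± 289 TPM in PTS2 (SD, n = 12) and 1935 ± 812 TPM in whole kidney (SD, n = 3), a log2 difference of 0.00 ± 0.20 (SE, adjusted p = 0.986 by limma). Kidney replicate 3 had 2865.38 TPM, above every tubule, while kidney replicates 1 and 2 had 1367.32 and 1571.23 TPM. With 1 library left out the log2 difference of Pck1 ran from -0.21 to 0.33, so 0.00 is not a firm value. Of 5 mitochondrial carriers tested, 1 passed, the aspartate-glutamate carrier Slc25a12, at -0.36 ± 0.10 (SE), and it was -0.10 after median-of-ratios rescaling, with an adjusted p of 0.449 by limma. The carriers as a list depended on the scaling, with 3 higher and 0 lower after median-of-ratios rescaling and 1 higher and 0 lower after quantile normalization. The calls of all 12039 genes moved with the scaling too. They went from 1046 higher and 4599 lower to 2431 and 2749, and to 3863 and 2148, in the same order.

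Other enzymes of glutamate differed in both directions. Of 10 tested, 6 passed (60.0%, beside 46.9% of all genes tested), 2 higher and 4 lower. Oat, ornithine aminotransferase, averaged 10.9 ± 4.27 TPM in PTS2 (SD, n = 12) and 196 ± 17.2 TPM in whole kidney (SD, n = 3), a log2 difference of -4.13 ± 0.32 (SE, adjusted p = 1.60e-08 by limma). Psat1, a phosphoserine aminotransferase, was lower by -2.64 ± 0.42 (SE). Aadat, an aminotransferase for aminoadipate and kynurenine, averaged 1067 ± 299 TPM in PTS2 (SD, n = 12) and 494 ± 70.0 TPM in whole kidney (SD, n = 3), higher by 1.06 ± 0.26 (SE). Kyat3, a kynurenine aminotransferase, was higher by 0.94 ± 0.22 (SE). Of 6 glutamine amidotransferases, which spend the amide nitrogen in synthesis, 1 was higher and 3 were lower (66.7% passed). Ctps, for CTP synthesis, differed by 0.69 ± 0.14, Cad, for pyrimidines, by -0.51 ± 0.19, and Ppat, for purines, by -0.49 ± 0.14 (SE). Neither Cad nor Ppat passed under either other scaling, and Cad turned to 0.31 after quantile normalization.

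All 5 genes of ammonium and acid-base transport were lower in the tubules, with a median log2 difference of -5.36. Rhcg, an ammonia channel of the collecting duct, had at most 0.49 TPM in any tubule and 111 ± 10.2 TPM in whole kidney (SD, n = 3). Slc12a1, the ammonium-carrying cotransporter of the thick ascending limb, is also one of that segment's markers used above; it reached 150.97 TPM in 1 tubule, m3 replicate 3, and averaged 334 ± 26.9 TPM in whole kidney (SD, n = 3). Slc9a3, the apical sodium-hydrogen exchanger of the proximal tubule, averaged 7.83 ± 3.65 TPM in PTS2 (SD, n = 12) and 27.4 ± 3.33 TPM in whole kidney (SD, n = 3), a log2 difference of -1.78 ± 0.36 (SE, adjusted p = 0.000729 by limma). Among the amino acid response genes, 7 of 9 tested passed (77.8%), 2 higher and 5 lower. Cebpb, a transcription factor, was higher by 0.73 ± 0.16, and Shmt2, a mitochondrial serine enzyme, by 0.44 ± 0.12, while Phgdh, the first enzyme of serine synthesis, differed by -2.61 ± 0.39 and Ddit3, a stress-induced factor, by -1.02 ± 0.20 (SE). Atf4 did not pass, at -0.23 ± 0.15 (SE, adjusted p = 0.216 by limma), and it was 0.04 after median-of-ratios rescaling.

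**Figure D4:**
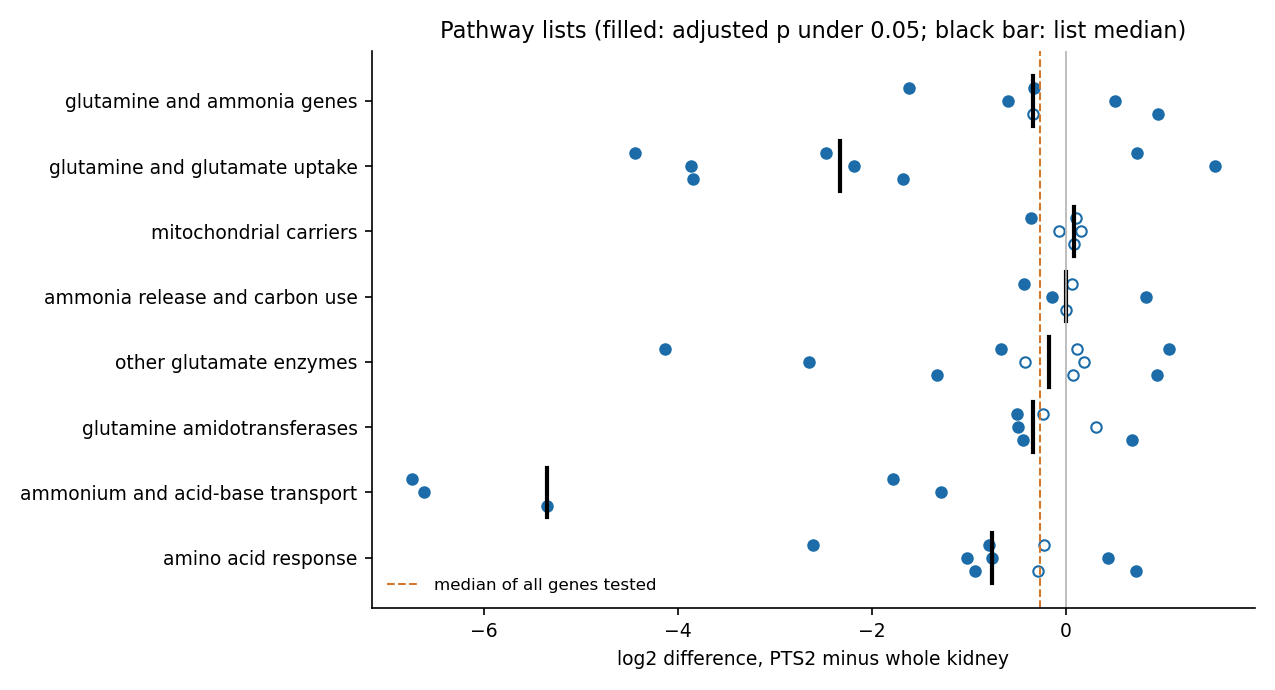
Log2 difference between PTS2 and whole kidney of each gene tested, by list, with filled points for an adjusted p under 0.05, black bars for list medians and a dashed line for the median of all genes tested (-0.27). Uptake and ammonium transport genes reach far below 0, while mitochondrial carriers lie close to it.

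Among the tubule sets, 5 of 46 pathway genes tested passed the F test of limma, beside the 3.02% of all genes. Kyat1, a kynurenine aminotransferase, had set means of 70.1 ± 4.64, 97.8 ± 4.83 and 119 ± 18.5 TPM, in the order m1, m2, m3 (SD, n = 4 each, adjusted p = 0.00208 by limma). Slc3a2, the heavy chain shared by several amino acid exchangers, had 79.2 ± 12.2, 55.5 ± 10.1 and 45.7 ± 9.94 TPM (SD, n = 4 each, adjusted p = 0.0451 by limma). Its partner Slc7a7 had 38.8 ± 4.65, 26.3 ± 2.91 and 26.6 ± 4.12 TPM (SD, n = 4 each, adjusted p = 0.0398 by limma). Eif4ebp1, an inhibitor of translation, had 24.1 ± 6.32, 14.8 ± 1.53 and 12.1 ± 2.34 TPM (SD, n = 4 each, adjusted p = 0.0179 by limma). Atf4, described above, was the fifth.

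Among the replicate numbers, 7 of the 46 pathway genes passed, beside the 2.71% of all genes. Aadat, Kyat3 and Cebpb were lowest in number 4 in 3 of 3 sets, as was Slc38a3, and Slc4a4, the basolateral bicarbonate cotransporter, and Gpt2 were highest in 3 of 3. Slc4a4 averaged 84.8 ± 20.1 TPM in number 1 and 137 ± 19.0 TPM in number 4 (SD, n = 3 each, adjusted p = 0.0116 by limma's F test). Slc9a3 averaged 5.87 ± 1.07 and 12.3 ± 3.30 TPM (SD, n = 3 each, adjusted p = 0.0170 by limma's F test). The call for Slc9a3 ended in 7 of 19 alternatives, among them without m1 replicate 4 (adjusted p = 0.0779 by limma), m2 replicate 1 (0.0523), m3 replicate 2 (0.0542) or m3 replicate 4 (0.0677). The call for Gpt2 (adjusted p = 0.0430 by limma's F test) ended in 13 of 20, among them 10 of the 12 fits without 1 tubule, that is all but those without m2 replicate 2 or 4 (up to 0.176). The call for Slc38a3 ended in 4 of 20, among them without m1 replicate 4 (0.0514) or m3 replicate 4 (0.0519).

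Genes whose pattern over the 12 tubules was most like each of the 7 were listed as a description, from 6441 genes with a PTS2 mean of at least 10 TPM. The 12 points share sets and replicate numbers, and no p is given. How high the best r of 6441 genes runs by chance over 12 points was not tested. For Glul the nearest were Slc22a26 (Pearson r = 0.955, Spearman rho = 0.951) and Car5a (r = 0.945, rho = 0.783). Glud1 was nearest to Cebpg (r = 0.961) and Tssc1 (r = 0.945), Got1 to Bco2 (r = 0.929) and Trp53bp2 (r = 0.925), and Got2 to Ces1e (r = 0.933) and Sdc2 (r = 0.930). Gpt was nearest to 1700037H04Rik (r = 0.950) and Tha1 (r = 0.932), and Asns to Nipsnap3b (r = 0.868) and Tuba1b (r = 0.848). Gls2 was too close to 0 for its nearest genes, Exosc8 (r = 0.866) and Cops6 (r = 0.808), to be read.

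Without m3 replicate 3, the tubule with thick ascending limb RNA, the PTS2 means over 11 tubules were 304 ± 58.5 TPM for Glul, 102 ± 8.79 for Glud1, 106 ± 16.0 for Got2, 50.5 ± 16.7 for Gpt, 40.3 ± 8.75 for Got1, 6.17 ± 2.95 for Asns and 0.209 ± 0.254 for Gls2 (SD). Each moved by less than its SD over all tubules. Leaving out any other tubule would have given that too, so it does not show whether m3 replicate 3 matters. The log2 difference of Got1 from whole kidney was then -1.65 (adjusted p = 1.69e-06 by limma) and that of Glul 0.52 (adjusted p = 0.0408 by limma), so neither call was lost.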

How the data were processed

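RNA-Seq libraries were made with the SMART-Seq V4 low-input kit and sequenced on an Illumina HiSeq instrument, per the labels' protocols. The submitters' processing notes name STAR 2.5.1b, RSEM 1.2.31 and the build GRCm38.p5; the annotation release is not given in the sources used here. The authors deposited 1 table of TPM for 47069 genes and 15 libraries, and each column sums to 1000000 apart from rounding. TPM keep no depth, so no count test, counting interval or detection floor was possible. The table's 4 further columns, means and standard errors computed by the authors, were left aside. Gene positions are those of GENCODE M21 (GRCm38), and promoters come from RefSeq (GRCm38.p6).

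Values were transformed to log2(TPM + 1), which understates fold changes of low genes. The tests used limma 3.58.1 (lmFit, eBayes with trend; R 4.3.3) on genes whose mean in the fit reached 1 TPM. Against whole kidney, the set entered as a correlated block (estimated correlation 0.0957), with the 3 kidney libraries as 1 block. Sets were compared with an F test over the 12 tubules, and replicate numbers with set and number in the model. P-values were adjusted over all genes tested. Ratios were tested with exact permutation tests in Python 3.11.15 (scipy 1.17.1, numpy 2.4.6, pandas 2.3.3); figures used matplotlib 3.10.9. The scripts were tested on simulated data.

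The 7 genes and the 7 pathway lists were chosen with earlier results of these data known; 1 further list gene is not reported here and enters no list count. Named genes were the 7, Gpt2, Slc38a3, Pck1, Slc9a3, Oat, Ggt1 and Atf4, and, per comparison and list, up to 2 genes per direction with an adjusted p under 0.05 and the largest log2 difference; the 2 most alike genes were named for each of the 7. Results were recomputed with a pseudocount of 0.1, without the filter, with a minimum mean of 10 TPM, median-of-ratios rescaling or quantile normalization, mitochondrially encoded genes left out, a replicate block, other block structures, 1 mean per set, and libraries left out.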

Additional observations from a re-analysis of the deposited data

Results flagged for a closer look

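Within the tubule sets of 4, a value was looked at again when its gap to the nearest other value exceeded 0.829 of the whole range of its set. Of 51 such tests on the 7 genes, the pathway genes always named and the 3 ratios, 3 met this rule, where chance gives about 2.55, or 1 in 20. Glul was 189.75 TPM in m1 replicate 4, while the other tubules of m1 lay between 303.96 and 319.76 TPM (gap over range 0.878). The same tubule had the highest sum of the S2 markers of all tubules, 1149 TPM, and the lowest sum of the S3 markers, 1606 TPM. Pck1 was 2374.69 TPM in m3 replicate 4, while the others of m3 lay at or below 1686.02 TPM (gap over range 0.892). Oat was 19.59 TPM in m3 replicate 3, the tubule with thick ascending limb RNA, while the next highest of m3 was 8.19 TPM (gap over range 0.835); the kidney mean of Oat was 196 TPM. The part of the segment or of that RNA in these values was not tested.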

How the results depend on the processing

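Against whole kidney, Got1, Got2 and Gpt kept their direction and their call in 27 of 27 alternatives, Glud1 in 26 and Glul in 20. Whole-kidney calls numbered 5645, but 9582 without a filter on low values and 2725 with a minimum mean of 10 TPM, where other numbers of genes were tested. Calls of any difference among sets numbered 341, against 196 with no filter and 175 without m3 replicate 3 and m1 replicate 4 together. Those of m2 against m1 numbered 61, against 105 after median-of-ratios rescaling, 107 after quantile normalization, 36 without both tubules and 37 without the libraries numbered 4. Calls of m3 against m1 numbered 358, against 178 with no filter, 132 without both tubules and 182 without number 4. Those of m3 against m2 numbered 223, against 111, 141 and 146 in the same order. Calls among replicate numbers numbered 306, against 0 with no filter (2871 genes at an unadjusted p under 0.05 in limma), 0 with set left out of the model (1419 genes) and 64 without both tubules. Leaving out 1 library each moved the whole-kidney calls between 4469 and 6433, set calls between 197 and 563, m2 against m1 between 37 and 135, m3 against m1 between 160 and 771, m3 against m2 between 119 and 313, number calls between 75 and 507, and the calls of number 4 against 1, 538 in all, between 249 and 757 (175 with no filter, 67 with set left out, 214 without both tubules). The replicate number as a block gave 888 set calls, 307 for m2 against m1, 838 for m3 against m1, 416 for m3 against m2 and 5646 against whole kidney. In the last of these fits the tubules numbered 4 have no kidney partner. They stay in the fit but add nothing to the estimated difference. Under that block Gpt (adjusted p = 0.025 by limma) and Got1 (0.0457) passed among the sets, and Gpt2 against whole kidney (0.00329). Deviations from the set means correlated at 0.138 on average over the 12 pairs with the same number (0.0209 to 0.281). Over the other 36 pairs the average was -0.0463, which nearly follows from the first, because the deviations of a set cancel out. Of the 12 tubules, 9 correlated best with a tubule of their own number, a hint from the data and not from the design. How many would do so by chance was not tested. Each kidney library as its own block, chosen after seeing the data like the settings without number 4, gave 6161. With 1 mean per set the log2 ratios were unchanged at -1.02 for Got1 to Got2, 0.84 for Glul to Glud1 and 1.37 for Gpt to Gpt2, but their exact permutation p was 0.1. With 1 library left out the ratio of Glul to Glud1 ran from 0.68 to 0.98, and its p exceeded the threshold without kidney replicate 1 or 2. Signs turned for Asns after quantile normalization (0.35), for Atf4 after median-of-ratios rescaling (0.036), and for Pck1, whose log2 difference is 0.00, after quantile normalization (-0.089), without mitochondrially encoded genes (-0.0095), with the replicate block (-0.079), without number 4 (-0.079) and in 8 fits with 1 library left out (-0.21 to 0.33 over all of them). The cause of these changes was not tested. The depth is unknown, so the precision of low genes such as Gls2 and Asns cannot be given.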
